A study of Mus musculus with 12 samples.

Results

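MiR-22 is made from a hairpin that carries a mature microRNA (miRNA) on each arm: the abundant guide strand miR-22-3p and the rare passenger strand miR-22-5p. The members were the rows of the deposited table named mmu-miR-22-3p and mmu-miR-22-5p, 2 of 1900 mature miRNAs in the table, each with a single row and a value above 0 in all 12 libraries. The libraries were made from small RNA of gastrocnemius muscle, the large calf muscle, of male C57BL/6 mice, 6 young animals of 6 months and 6 aged animals of 24 months. The comparison of the ages asks how the level of each strand, its share of the library and the balance between the strands stood in young and aged muscle.

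A miRNA hairpin is cut by Drosha and Dicer to a short duplex, of which Argonaute keeps the guide strand, while the passenger strand is mostly degraded. The guide pairs with target mRNAs mainly through its seed, bases 2 to 8 from the 5′ end. In striated muscle miR-22 is best known from the heart, where mice that lack it respond abnormally to pressure overload.

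The hairpin lies at chr11:75463716-75463810 on the plus strand (GRCm38.p6, the mm10 assembly), inside exon 2 of the long non-coding RNA gene Mir22hg (exon at 75463693 to 75463857 in 1 transcript and to 75464029 in the other). The first of these stretches is also annotated as exon 2 of a Tlcd2 transcript on the same strand. The mature sequences, from RefSeq, are shown because the measured balance is between these 2 strands, with the seed in capitals:
miR-22-3p: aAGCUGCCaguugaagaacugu
miR-22-5p: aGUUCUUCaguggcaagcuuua
Each strand was 22 nucleotides long, so that a ratio of FPKM values between the strands equals a ratio of reads. The guide holds the reverse complement of the seed of the passenger at its bases 13 to 19, in capitals here:
miR-22-3p: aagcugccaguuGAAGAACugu
In the whole hairpin, with both mature strands in capitals, the 5p strand takes bases 19 to 40 and the 3p strand bases 57 to 78, with 16 bases between them:
mir-22 hairpin: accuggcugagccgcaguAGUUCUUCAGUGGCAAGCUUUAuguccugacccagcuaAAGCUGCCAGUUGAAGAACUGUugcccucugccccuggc
RNAfold gave this hairpin a minimum free energy of -41.9 kcal/mol, with 19 base pairs between the strands. None of the other 1678 mature mouse miRNAs compared shared bases 2 to 8 with either strand, so the seed of miR-22-3p had no other source among them. With the shorter seed of bases 2 to 7, chosen after that search, miR-22-5p had 2 partners, miR-6935-3p and miR-7092-3p. They were listed above 0 in 2 libraries and 1 library, at no more than 15.3 and 5.35 FPKM.

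The table held log2 of FPKM (a read count divided by miRNA length and by library size), and 877 miRNAs were above 0 in at least 1 library. From the size of the step that 1 read makes among low values, the mapped reads of each library were estimated at 212075 to 6528404 in young and 120346 to 7762845 in aged muscle. The deepest libraries were young replicate 6 and aged replicate 3 and the shallowest was aged replicate 5. The sources used here do not say whether FPKM was scaled to all mapped reads or to miRNA reads only, so mapped reads here means the total that FPKM was scaled to, and percentages of it are shares of that total. This 64.5-fold range in depth bears on the passenger strand, which had few reads in shallow libraries, far more than on the guide.

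MiR-22-3p stood at nearly the same mean level at both ages. Its lowest, median and highest log2 FPKM were 21.65, 22.125 and 22.66 in young libraries. In aged libraries they were 21.91, 22.125 and 22.43. The medians were equal, and all 6 aged libraries lay inside the range of the young ones. Young muscle had a mean of 22.14 ± 0.37 and aged muscle one of 22.15 ± 0.18 (SD, n = 6 each). Young replicate 3 was the lowest of the 12 libraries and young replicate 5 the highest. The estimated reads behind these values ran from 11985 in aged replicate 5 to 789310 in aged replicate 3, so counting error was small for the guide.

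**Figure D1:**
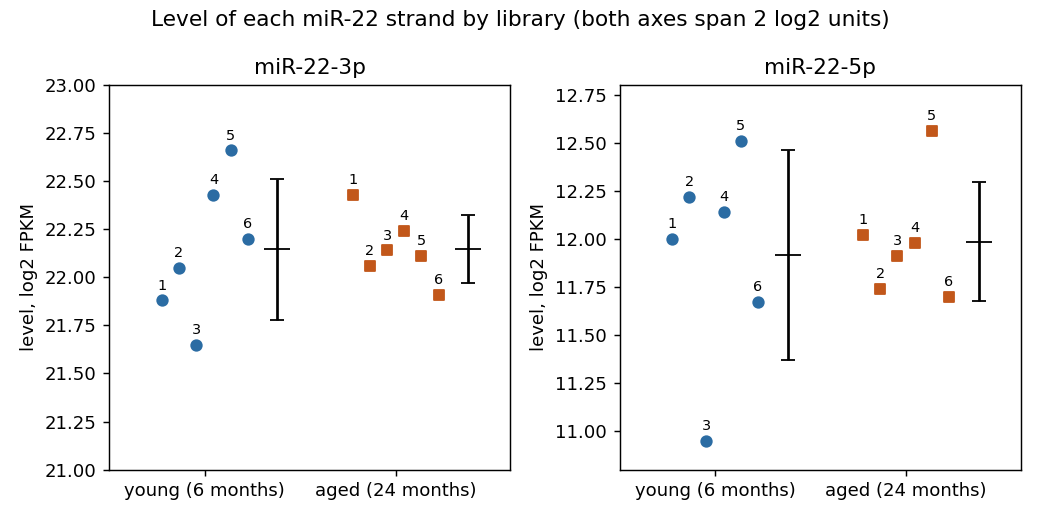
Level of miR-22-3p (left) and miR-22-5p (right) in log2 FPKM in each library (numbers are replicates, circles young, squares aged), with the mean and SD of each age as bars. The ages overlap for both strands, and young replicate 3 is the lowest point in both panels.

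In terms of reads, the guide strand alone took a large part of the small RNA library. MiR-22-3p held 7.24% to 14.6% of the estimated mapped reads in young libraries, with a mean of 10.5% ± 2.68 (SD, n = 6). In aged libraries it held 8.67% to 12.4%, with a mean of 10.3% ± 1.28 (SD, n = 6). The range was wider in young muscle, and the difference of spread was not tested. As a share of the summed FPKM the means were 11.2% ± 3.10 and 10.7% ± 1.80 (SD, n = 6 each). They differed by -0.507 percentage points, which is within the SD of either age (exact permutation test, two-sided, p = 0.736, adjusted p = 0.900 over 3 shares). Over the 924 splits of 6 against 6 libraries the smallest possible p is 0.00216. The summed FPKM counts rows that carry the same reads, such as rows of miR-486 and miR-3107, more than once. With opposite-strand partners of this kind counted once the difference was -0.453 points (exact permutation test, two-sided, p = 0.779).

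The level of miR-22-3p placed it among the 4 highest miRNA rows of nearly every library. It had rank 1 in 1 library, aged replicate 1, rank 2 in 2, rank 3 in 1 and rank 4 in 7 of the 12. In young replicate 3 it had rank 7, where the rows above it included miR-486 and miR-3107 rows that moved almost as one (below). Of the 3 miRNAs with a higher mean, all read on the same scale per length, miR-133a-3p, which is transcribed in muscle fibres, lay below miR-22-3p in 1 of the 12 libraries. MiR-10b-5p, a miRNA encoded in a Hox gene cluster, lay below it in 3, and miR-143-3p, known for smooth muscle, in 4. Next below came miR-3107-3p, a row with the same reads as a miR-486 row, and miR-486-3p, each lower than miR-22-3p in 11 of the 12. The remaining members of the 10 highest in young muscle, miR-486-5p, miR-3107-5p, miR-30a-5p and miR-26a-5p, were lower in 11, 12, 12 and 12 libraries. All miR-486 and miR-3107 rows moved almost as one, so they are not read here as separate miRNAs. In both hairpins the log2 ratio of 3p to 5p had a within-age SD of 0.011, against 0.32 for miR-22. The ranges of the 4 highest rows therefore overlapped, and their order by mean was not the order in single libraries. Each single miR-486 row lay below miR-22-3p in 11 of 12. How reads were assigned among the miR-486 and miR-3107 rows is not given. The ranks and this step therefore compare miR-22-3p with single rows, and its order against miR-486 as a whole was not tested.

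**Figure D2:**
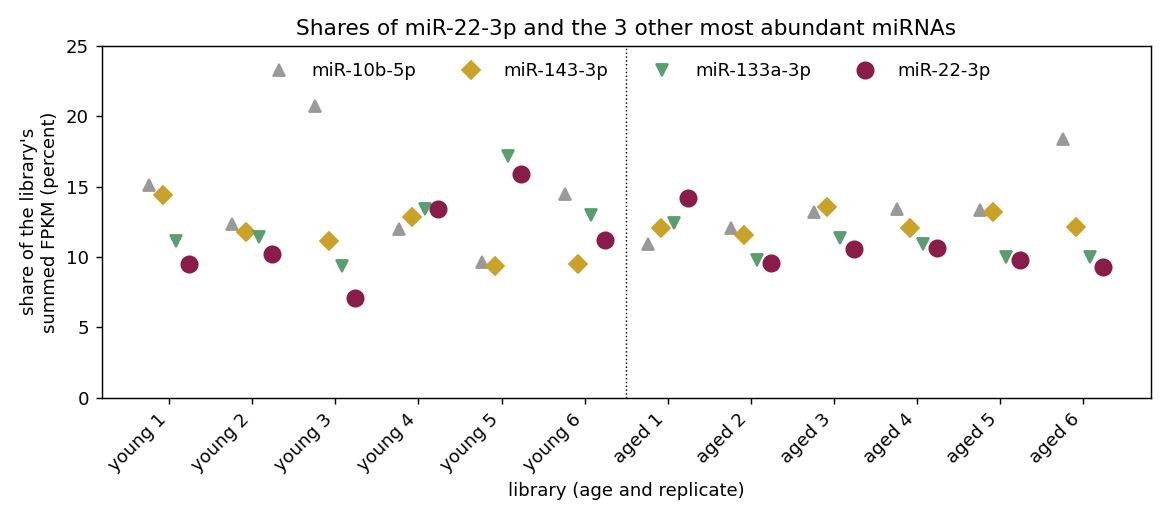
Share of each library's summed FPKM (percent, vertical) held by miR-22-3p and the 3 other miRNA rows of highest mean. The 12 libraries are horizontal, young left and aged right of the dotted line. MiR-22-3p ranges from 7.09% in young replicate 3 to 15.9% in young replicate 5, and is the highest of the 4 in aged replicate 1.

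MiR-22-5p was present in every library at a level 750 to 1663 times lower than the guide. Its lowest, median and highest log2 FPKM were 10.95, 12.07 and 12.51 in young libraries and 11.70, 11.945 and 12.56 in aged libraries. Of the aged libraries, 5 lay inside the young range, and aged replicate 5 lay just above it. Young muscle had a mean of 4075 ± 1329 FPKM and aged muscle one of 4138 ± 988 FPKM (SD, n = 6 each). These values rested on few reads in shallow libraries. Young replicates 1 to 6 had 55, 49, 13, 21, 56 and 468 estimated reads of miR-22-5p. Aged replicates 1 to 6 had 152, 103, 657, 109, 16 and 97. The lowest library, young replicate 3, and the highest, aged replicate 5, were thus those with the fewest reads.

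As a share of the summed FPKM the means of miR-22-5p were 0.00963% ± 0.00335 for the young and 0.00940% ± 0.00207 for the aged libraries (SD, n = 6 each), a difference within either SD (exact permutation test, two-sided, p = 0.900). Though a passenger strand, it was not among the rarest miRNAs. By mean level it had rank 111, and its rank in single libraries ran from 92 to 132. Its neighbours by mean were miR-5099 and miR-744-5p just above, each lower than miR-22-5p in 5 of the 12 libraries, and miR-1843b-5p and miR-301a-3p just below, lower in 6 and 7. These neighbours could not be put in a fixed order.

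The balance between the strands was strongly toward the guide at both ages. The log2 ratio of 3p to 5p had a lowest value of 9.83, a median of 10.22 and a highest value of 10.70 in young libraries. The values were 9.55, 10.245 and 10.41 in aged libraries. Young muscle had a mean of 10.23 ± 0.35 and aged muscle one of 10.16 ± 0.31 (SD, n = 6 each), and the ages overlapped. Over the 12 libraries the median was 1216 estimated reads of miR-22-3p for each read of miR-22-5p.

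Expressed as a percentage of the reads of the hairpin, the passenger strand held 0.0852% ± 0.0202 in the young and 0.0889% ± 0.0221 in the aged libraries (SD, n = 6 each), which differed by less than either SD (exact permutation test, two-sided, p = 0.790). The exact binomial (Clopper-Pearson) 95% interval of a library shows what its depth allows, for counting error only. For aged replicate 5, with 16 of 12001 reads on 5p, the share was 0.133% with an interval of 0.0762% to 0.216%. For young replicate 3, with 13 of 21614, it was 0.0601% with an interval of 0.0320% to 0.103%. These were the highest and the lowest share, and both intervals held 0.0822%, the median of the libraries. The intervals of 11 of the 12 libraries held it. The exception was the deep young replicate 6, with 0.0676% and an interval of 0.0616% to 0.0740%. The other deep library, aged replicate 3, had 0.0832% with an interval of 0.0769% to 0.0898%. In the sum of all reads of an age, in which the deepest library weighs most, the share was 0.0735% in young (662 of 900570 reads) and 0.0815% in aged muscle (1134 of 1390597), and 468 of the 662 young reads came from young replicate 6.

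**Figure D3:**
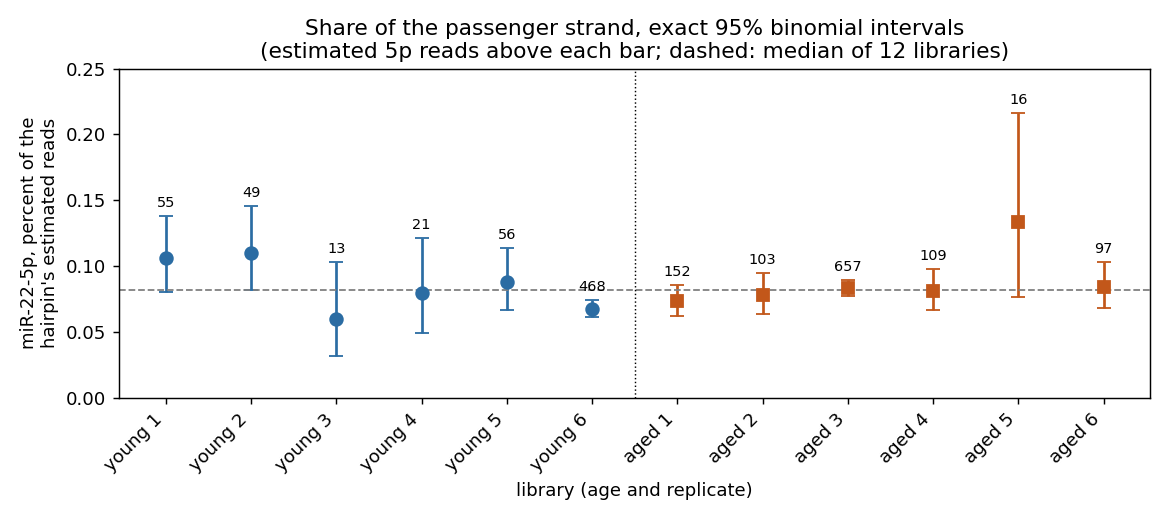
Percent of the estimated reads of the mir-22 hairpin that came from miR-22-5p (vertical) in each library (horizontal, circles young, squares aged), with exact 95% binomial intervals and the number of 5p reads above each bar. All intervals except that of young replicate 6 cross the dashed line, the median of 0.0822%.

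Among hairpins with both arms measured and matched by name, miR-22 was one of the most one-sided. For 130 hairpins the arms were matched by name and each had reads in 5 or more libraries. The 3p arm was higher in 59 and the 5p arm in 71, and the median absolute log2 ratio was 2.97. Some are opposite-strand copies that carry the same reads and enter with mirrored ratios, such as miR-136 (0.52 in young muscle) and miR-3071 (-0.52). The counts and places here hold such reads more than once. Arms named by genomic copy were not matched and are left out, such as let-7f-5p (fitted log2 level 18.1 in young muscle) with let-7f-1-3p (7.66). The ratio of miR-22, 10.18 as the mean of both ages, was the second highest toward 3p. Only miR-143 was further toward 3p, at 12.54. The next below were miR-27b at 9.93, miR-127 at 8.77 and miR-101a at 8.49. Counting both directions, miR-22 was in place 6 of 130. MiR-22-3p was in place 4 among the higher arms of the 130 hairpins, and miR-22-5p in place 13 among the lower arms, so that the passenger was abundant for a lower arm. Its mean of 4106 FPKM stood against a median of 133 FPKM for the lower arms.

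**Figure D4:**
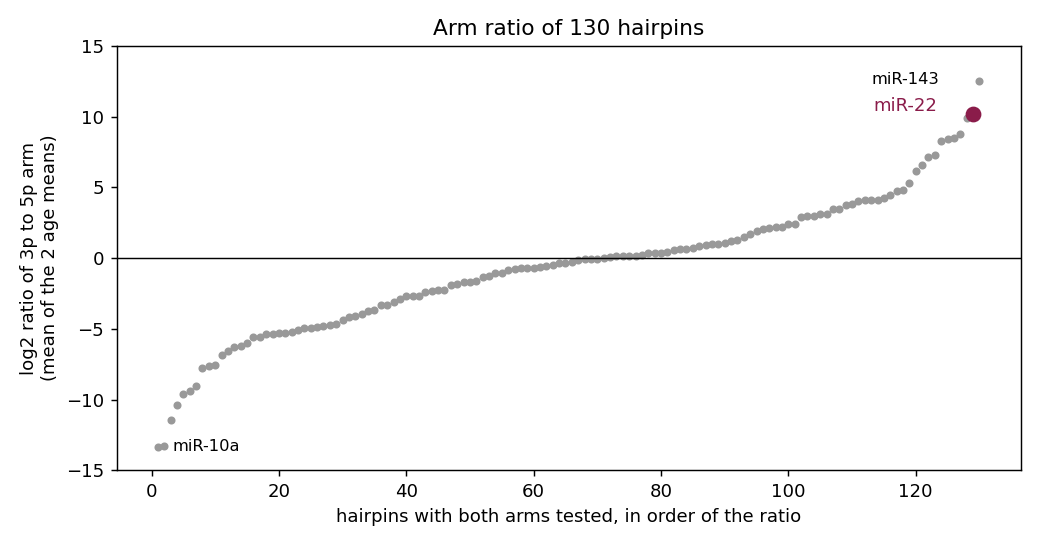
Log2 ratio of 3p to 5p arm, with the pseudocount added to each (vertical), for the hairpins matched by name with both arms tested. Hairpins are in order of the ratio (horizontal). MiR-22, the large point at 10.18, is next to miR-143 at the 3p end of the order.

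Neither strand passed the test between the ages in the fit across all miRNAs. With limma on log2(FPKM + 48.2), miR-22-3p differed by 0.0033 (aged minus young, SE 0.17, 95% interval -0.34 to 0.35, adjusted p = 0.992 over 482 miRNAs). The interval allows an aged level between 0.790-fold and 1.27-fold of the young level. MiR-22-5p differed by 0.068 (SE 0.22, 95% interval -0.38 to 0.52, limma adjusted p = 0.944), which allows 0.768-fold to 1.43-fold. Of the 2 strands 0 were called, by the adjusted or the unadjusted limma p at 0.05. Over all miRNAs tested 2.9% were called by the adjusted p (14 of 482) and 12.9% had an unadjusted p under 0.05. Some of these rows carry the same reads as another row, and with opposite-strand partners counted once 7 of 463 were called by the adjusted p. For 2.7% of the 482 no aged library fell within the young range or the reverse, and neither strand of miR-22 was among these. By the size of its change miR-22-3p was the second smallest of the 482, whose median absolute change was 0.27. The log2 ratio of 3p to 5p differed by -0.065 (SE 0.19, 95% interval -0.49 to 0.36, limma adjusted p = 0.904 over 130 hairpins), with 0.769% of the hairpins called. An unequal change of the arms was thus not detected, and the interval allows a shift of the ratio between 0.714-fold and 1.28-fold. The size of the difference depended on single libraries. Without young replicate 3 the change of miR-22-3p was -0.096 and that of miR-22-5p -0.12, and without young replicate 5 they were 0.11 and 0.19, none of them called. Without the 3 libraries that had under 25 reads of miR-22-5p, left out after seeing the data, the passenger differed by -0.23 and was not called either.

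The intervals rest on the spread between libraries of the same age, which limma moderates with that of the other miRNAs. With limma without trend the SE was 0.19 in place of 0.17 for miR-22-3p. For miR-22-5p it was 0.26 in place of 0.22. The within-age SD of miR-22-3p was 0.29 log2 units, at percentile 40.5 of 200 abundant miRNAs, for which the median was 0.33. For miR-22-5p it was 0.44, at percentile 65.5.

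A list of 8 muscle-enriched miRNAs gave the setting in the same tissue. Of the 8, 7 were tested, 1 rose and 6 did not pass the test, beside 2.9% called over all 482 miRNAs. The median change of the 7 was 0.17, against 0.068 over all 482. The 1 that rose was miR-206-3p, a miRNA of regenerating muscle, by 1.54 (SE 0.39, limma adjusted p = 0.0296). MiR-133a-3p, which acts in myoblast proliferation, had a change of -0.17 and its relative miR-133b-3p of -0.11. MiR-1a-3p, which promotes differentiation, had 0.17 and miR-486-5p, which acts on the Akt pathway, 0.11 (limma adjusted p from 0.651 to 0.835 for these 4). The myosin-embedded miR-208b-3p and miR-499-5p had values of 1.29 and 0.79 with wide intervals, above 0 in 7 and 8 libraries, and miR-208a-3p of the heart was listed at 0 in all 12. Per length, miR-22-3p had a mean of 11.2% of the summed FPKM in young muscle against 0.481% for miR-1a-3p and 12.6% for miR-133a-3p. The passenger miR-22-5p exceeded miR-206-3p, miR-208b-3p and miR-499-5p in all 12 libraries.

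**Figure D5:**
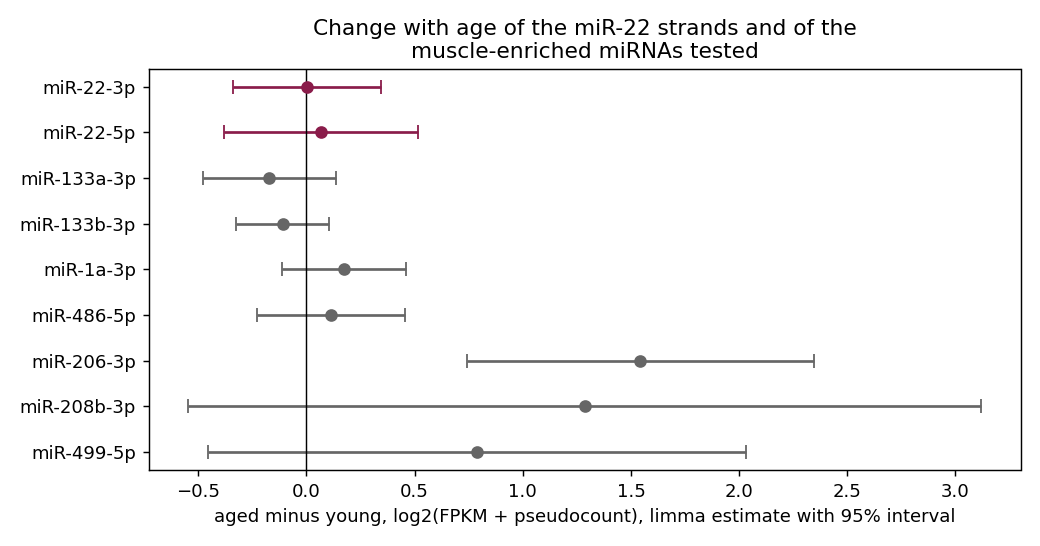
Change with age (horizontal, aged minus young on the log2 scale with a pseudocount, limma estimate with its 95% interval) of the 2 miR-22 strands and of the 7 muscle-enriched miRNAs tested. The intervals of both miR-22 strands cross 0, and that of miR-206-3p, from 0.74 to 2.35, does not.

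The libraries differed in miR-22-3p along with other abundant miRNAs. In young replicate 3, where miR-22-3p held 7.09%, miR-10b-5p held 20.8%, its highest share. In young replicate 5, where miR-22-3p held 15.9%, miR-10b-5p held 9.66%, its lowest share. In aged muscle the same 2 extremes were aged replicate 6, with 9.32% against 18.4%, and aged replicate 1, with 14.2% against 10.9%. MiR-10b-5p was thus at its highest where miR-22-3p was at its lowest within each age, and the reverse. Across the 12 libraries Pearson's r of the log2 levels was -0.88 (permutation test, p = 0.000340, adjusted p = 0.00102 over 6 relations) and Spearman's rho -0.65 (permutation test, p = 0.0244, adjusted p = 0.0732). Without the 2 libraries farthest in miR-10b-5p r was -0.70. Within ages r was -0.90 in young and -0.85 in aged libraries (exact permutation tests, n = 6, p = 0.0167 and 0.0583), but 0.75 in the 4 aged libraries left without the 2 extremes, so that within aged muscle the relation rests on those 2.

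MiR-133a-3p moved with miR-22-3p in the other direction. Across the 12 libraries r was 0.85 (permutation test, p = 0.000270, adjusted p = 0.00102) and rho 0.88 (permutation test, p = 0.000490, adjusted p = 0.00294), and r was 0.75 without the 2 farthest libraries. Within ages r was 0.96 in young libraries, in which both miRNAs had the same rank order (exact permutation test, n = 6, p = 0.00139), and 0.82 in aged libraries (exact permutation test, n = 6, p = 0.0417). Without the 2 farthest libraries of each age r was 0.93 in young and 0.46 in aged muscle. Both relations were chosen after the values were seen. All levels are scaled to the same library totals, of which each of these miRNAs is a large part, so that a high share of 1 lowers the others, and its part in these relations was not tested.

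The strands of miR-22 followed each other less closely. Between miR-22-3p and miR-22-5p r was 0.67 (permutation test, p = 0.0181, adjusted p = 0.0362) and rho 0.45 (permutation test, p = 0.142, adjusted p = 0.213). Without young replicates 3 and 5 r was 0.17, so the relation rests on those libraries. Within ages r was 0.78 in young and 0.29 in aged libraries (exact permutation tests, n = 6, p = 0.0597 and 0.550). No relation with depth passed the test. For miR-22-3p r was 0.046 and rho 0.084 (permutation tests, p = 0.887 and 0.796). For miR-22-5p r with depth was -0.30 and rho -0.52 (permutation tests, p = 0.350 and 0.0888), and for the ratio they were 0.44 and 0.37 (permutation tests, p = 0.149 and 0.236). The adjusted p of these 3 values of r was 0.887, 0.420 and 0.223, and without the 2 farthest libraries r was 0.027, -0.27 and 0.40.

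By the shape of the profile over the 12 libraries, the miRNA most like miR-22-3p was miR-126a-3p, an endothelial miRNA, with its copy miR-126b-5p that carries the same reads. The measure was the root mean square distance of the centred log2 levels, 0.11 for both against a median of 0.36 over 210 miRNAs. Then came miR-196a-5p, a Hox cluster miRNA, at 0.12, miR-21a-5p at 0.13 and miR-26a-5p at 0.13. For miR-22-5p the nearest were miR-744-5p at 0.26, miR-27b-3p at 0.28 and miR-30c-2-3p, miR-128-3p and miR-5099, each at 0.29. The strands of miR-22 were 0.30 apart, place 79 of 210 as seen from the guide and place 8 as seen from the passenger. These distances depend on the spread of each miRNA as well as on its profile and are given as a description.

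Muscle tissue also holds blood, vessels, connective tissue and nerve, and in whole tissue fewer cells of a type and less RNA per cell cannot be told apart. All 3 defining miRNAs of skeletal muscle, miR-1a-3p, miR-133a-3p and miR-206-3p, were above 0 in all 12 libraries and together held 9.79% to 17.6% of the summed FPKM in young and 10.3% to 12.9% in aged muscle. Over 15 markers of 6 other cell types, the smallest limma adjusted p between the ages was 0.0975, for the smooth muscle marker miR-145a-5p. Its change was -0.43, and that of the other smooth muscle marker, miR-143-3p, was 0.17 (limma adjusted p = 0.679). The 2 smooth muscle markers, miR-143-3p and miR-145a-5p, together held 9.36% to 14.4% in young and 11.6% to 13.6% in aged muscle. The 2 endothelial markers held 0.663% to 1.08% and 0.770% to 0.961%. The 3 red blood cell markers held 0.0140% to 0.0246% and 0.00656% to 0.0264%, and the 4 white blood cell markers 0.0182% to 0.0461% and 0.0259% to 0.0626%. The 2 fibroblast markers held 0.0663% to 0.0929% and 0.0632% to 0.115%. The nerve markers miR-124-3p and miR-9-5p held at most 0.00218%. The ranges of the ages overlapped for each cell type. Aged replicate 1, where miR-22-3p was highest among aged libraries, also had the highest share of red and of white blood cell markers, and their part in that level was not tested.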

How the data were processed

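Small RNA was sequenced in 12 libraries, 1 per mouse. After adaptor trimming the authors aligned reads with BWA (mm10) and derived an FPKM value per mature miRBase miRNA. The submitters' processing notes also name TopHat2. The deposited values are log2 of FPKM, and 0 stands for no read. Strand use and the assignment of reads with several sites are not given in the sources used here.

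The log was undone, zeros kept at 0 and genomic copies summed. Mapped reads were estimated from the steps of values under 25 reads, with mature lengths from RefSeq (1603 of 1900 miRNAs matched). Of 2988 such values 99.4% lay within 0.15 of a whole read. Intervals cover counting error only. MiRNAs above 0 in at least 5 libraries were fitted as log2(FPKM + 48.2), a pseudocount taken as the median of the 12 library minima above 0, with limma 3.58.1 in R 4.3.3 (eBayes with trend, two-sided, Benjamini-Hochberg at 0.05, no covariate). Because of the pseudocount a fitted difference understates the change of low miRNAs. Shares were compared by exact permutation, relations with 100000 permutations (exact within ages). The fit was tested on simulated data with planted changes of 1.5 log2 units, far larger than the changes fitted for miR-22. It recovered 93.0% of the changed abundant miRNAs and 31.9% of the rarer ones, and smaller changes were not simulated. Python 3.11.15, SciPy 1.17.1 and ViennaRNA 2.7.2 were used.

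The members, the lists and the tests were chosen with earlier results of these data known. The text names the miR-22 strands, miRNAs sharing a seed, the muscle-enriched and marker lists, neighbours by level, by arm ratio and by profile, and the 10 highest in young muscle. The alternatives were other pseudocounts, filters, scalings, sums and tests, depth as a covariate, a replicate block and leaving out libraries. Leaving out shallow libraries, and for the share of the hairpin any left-out library or block, were added after seeing the data.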

Additional observations from a re-analysis of the deposited data

Results flagged for a closer look

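Dixon's test for a single distant value was run in 14 groups of 6 libraries, and 5 such values were found, where chance, at about 1 in 20 groups, gives 0.7. The measures share their values, so these are not 5 separate events. In aged replicate 5 miR-22-5p had a log2 level of 12.56 against 11.70 to 12.02 in the other aged libraries. The log2 ratio of 3p to 5p was 9.55 there against 10.21 to 10.41, and 5p held 0.133% of the hairpin's reads against 0.0732% to 0.0843%. These 3 values rest on 16 reads in the shallowest library.

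In aged replicate 1 miR-22-3p held 14.2% of the summed FPKM against 9.32% to 10.7% in the other aged libraries, from 207473 estimated reads. In young replicate 6 the log2 of the mapped reads was 22.64 against 17.69 to 19.22 in the other young libraries.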

How the results depend on the processing

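No alternative called either strand, the ratio or a share. The smallest adjusted p was 0.780 for miR-22-3p, 0.610 for miR-22-5p and 0.640 for the ratio. The differences were close to 0, and their sign turned with the processing. The change of miR-22-3p was -0.025 with median-of-ratios scaling, -0.024 with opposite-strand partners counted once and -0.0040 with depth as a covariate. Leaving out the 3 libraries with under 25 reads of miR-22-5p, an option chosen after seeing the data, gave -0.041 for miR-22-3p, -0.23 for miR-22-5p, 0.19 for the ratio and -0.013 percentage points for the share of the hairpin on 5p. The share of miR-22-5p differed by 0.00086 points in a sum without the 10 highest other miRNAs. Leaving out each library in turn gave -0.096 to 0.11 for miR-22-3p, -0.12 to 0.19 for miR-22-5p, -0.14 to 0.057 for the ratio, -1.33 to 0.435 points for the share of miR-22-3p, -0.0013 to 0.00065 points for that of miR-22-5p and -0.0052 to 0.0087 points for the share on 5p. The cause was not tested.

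The 14 miRNAs called became 6 with a pseudocount of 1 FPKM, 7 without a filter or with partners counted once, 8 with a filter on the mean, with depth as a covariate or without the 3 shallow libraries, and 6 to 15 without single libraries. The count was 17 with median-of-ratios scaling and 19 with quantile normalization, and 11 with a pseudocount 10 times larger or with limma without trend. The 1 hairpin called became 0 with a pseudocount of 1 FPKM, without a filter or with limma without trend, 3 with a pseudocount 10 times larger, 2 with the replicate block and 0 to 4 without single libraries. Same-numbered libraries did not deviate together (r from -0.094 to 0.095, and 0 of 6 young libraries were most like their own number). The values thus gave no sign of pairing by number, and whether libraries were handled in pairs was not tested. With the replicate block miR-22-3p differed by 0.0033 (limma adjusted p = 0.994). Depth limits the passenger strand, where 3 libraries had 13 to 21 reads.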
